A study of Mus musculus with 41 samples.

Results

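The desmosome genes *Dsp*, *Pkp1*, *Pkp3*, *Jup*, *Dsg2*, *Dsg3*, *Dsc2*, *Dsc3*, *Perp* and *Ppl* were followed through 16 pooled peak lists of CUT&RUN (CNR), in which an antibody guides a nuclease to a chromatin protein and the DNA released around it is sequenced. These 10 of 21911 annotated protein-coding genes were taken by name, and every peak that overlapped a gene body or the 50 kb to either side of it was assigned to them. Because neighbouring windows overlapped, the 10 windows merged into 8 regions of 1.19 Mb in all, and each peak was counted once. Of the 41 samples in the series, 32 stood behind these lists, 2 per list. In skin, epidermal stem cells (EpdSCs; negative for CD31, CD45, CD117, CD140a and CD34, and high for CD49f and Ly6A) were sorted from the backs of male CD1 mice of the genotype K14rtTA; TRE-myc-Sox9, in which doxycycline (DOX) switches on MYC-tagged SOX9 in cells that use the *Krt14* promoter. SOX9 CNR covered D0 (age P21, no DOX) and 1, 2, 6 and 12 weeks of DOX (W1, W2, W6 and W12), with ages of P28, P35 and P63 at W1, W2 and W6, and MLL3/4 was profiled in the first 3 of these stages. The W12 skin had been grafted from newborn pups onto Nude female hosts, so W12 differed from the earlier weeks in setting as well as in time. In culture, keratinocytes from newborn skin carried WT-SOX9, dTA-SOX9 (without the transactivation domain) or dHMG-SOX9 (without the DNA-binding domain). They were profiled with the MYC tag antibody and for MLL3/4 after DOX (1 µg/ml), beside WT-SOX9 cells without DOX. The labels of the cultured samples give the mouse genotype named above, whereas the study's methods describe *Krt14*-rtTA cells transduced with lentivirus for the 3 forms of SOX9.

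Desmosomes rivet neighbouring keratinocytes to each other and give the epidermis its mechanical strength. Their cadherins, the desmogleins (*Dsg*) and desmocollins (*Dsc*), span the membrane and meet those of the next cell. Inside the cell, plakoglobin (*Jup*) and the plakophilins (*Pkp*) bind the cadherin tails, and desmoplakin (*Dsp*) ties this plaque to keratin filaments. Perp is a membrane protein needed for stable desmosomes in stratified epithelia, and periplakin (*Ppl*) is a plakin of desmosomes and of the cornified envelope. MLL3/4 are the methyltransferases that place H3K4me1 at enhancers, and SOX9 is a transcription factor that directs hair follicle fate.

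Each group had 1 pooled list, so no test between groups was possible. Shares are given with 95% Wilson intervals over peaks, which cover counting error only and do not hold the spread between animals or cultures. The RPKM worth of 1 fragment, read from the lists, put the SOX9 lists at 13.1 to 32.5 M fragments and the MYC-tag lists at 4.04 to 6.09 M. The weakest peak rested on 24 to 59 fragments in the SOX9 lists and on 8 to 11 in the MYC-tag lists. The depth of the MLL3/4 lists is unknown because their coverage was unscaled, so MLL3/4 strength is given as a rank within its list. In the skin lists, all 4 basal keratinocyte markers (*Krt5*, *Krt14*, *Trp63* and *Itga6*) had an MLL3/4 peak within 1 kb of a start at D0, W1 and W2, and none of the 5 genes of gated-out cells (*Ptprc*, *Pecam1*, *Pdgfra*, *Kit* and *Cd34*) had one.

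The W1 SOX9 sites that the results below turn on are printed first, for the genes on chromosomes 1, 7, 10, 11, 13 and 16. Each run is 101 bases of the plus strand of mm10 (GRCm38.p6, RefSeq genome), reaching 50 bases either way from the middle of the peak's maximum. Capitals mark a SOX word or an AP1 word on either strand. The SOX words were CCATTGT in its first form and CCTTTGT in its second, with GCATTGT as the third spelling and GCTTTGT as the last one. The AP1 words were TGACTCA together with the reverse complement that reads TGAGTCA, and matches of the 2 sets were counted separately even where they met. The first set holds the strongest W1 SOX9 peak of each of 6 genes, all of them on chromatin that had MLL3/4 at D0, and 1 of the 6 carries a SOX word.
Dsp, far upstream, chr13:38118531-38118631: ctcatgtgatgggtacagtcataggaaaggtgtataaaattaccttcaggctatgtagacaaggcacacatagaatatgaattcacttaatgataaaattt
Pkp1, past the gene's end, chr1:135868929-135869029: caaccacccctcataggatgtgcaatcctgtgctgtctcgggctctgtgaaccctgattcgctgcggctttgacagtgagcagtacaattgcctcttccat
Pkp3, upstream, chr7:141033051-141033151: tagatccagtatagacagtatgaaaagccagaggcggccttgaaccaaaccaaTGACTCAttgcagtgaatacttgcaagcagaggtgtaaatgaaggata
Jup, upstream of the start, chr11:100398060-100398160: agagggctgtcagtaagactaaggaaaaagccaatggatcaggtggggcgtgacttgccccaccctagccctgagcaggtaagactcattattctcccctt
Perp, past the gene's end, chr10:18860150-18860250: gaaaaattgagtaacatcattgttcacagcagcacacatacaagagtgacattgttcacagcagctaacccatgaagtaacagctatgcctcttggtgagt
Ppl, upstream, chr16:5136818-5136918: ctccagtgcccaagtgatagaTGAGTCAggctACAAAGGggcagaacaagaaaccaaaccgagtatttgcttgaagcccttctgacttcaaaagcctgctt

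The second set shows the *Dsp* sites, since this gene held the most W1 SOX9 peaks without MLL3/4 at D0 (4 of its 13, of which 3 are printed). The first of the 4 lines below is a site that already had MLL3/4 at D0 and the next 3 are sites that did not.
Dsp, upstream, with MLL3/4 at D0, chr13:38145160-38145260: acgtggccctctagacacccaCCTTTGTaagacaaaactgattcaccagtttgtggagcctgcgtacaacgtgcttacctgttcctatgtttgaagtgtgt
Dsp, upstream, without MLL3/4 at D0, chr13:38143847-38143947: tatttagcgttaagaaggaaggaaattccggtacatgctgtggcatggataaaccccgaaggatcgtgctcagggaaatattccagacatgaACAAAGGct
Dsp, upstream, without MLL3/4 at D0, chr13:38150057-38150157: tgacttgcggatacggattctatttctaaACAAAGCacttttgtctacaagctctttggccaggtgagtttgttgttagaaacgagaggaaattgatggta
Dsp, intron, without MLL3/4 at D0, chr13:38171049-38171149: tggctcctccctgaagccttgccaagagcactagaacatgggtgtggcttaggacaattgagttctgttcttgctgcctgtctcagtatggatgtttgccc

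Over all of the members' W1 SOX9 peaks, 10 of 64 (15.6%, interval 8.71 to 26.4) held a SOX word in these 101 bases, against 18.4% of all 15651 W1 SOX9 peaks. An AP1 word stood in 14 of 64 (21.9%, interval 13.5 to 33.4), against 16.2% of all. Split by MLL3/4 at D0, a SOX word was found in 6 of 56 members' peaks with it (10.7%, against 12.1% of all such peaks) and in 4 of 8 without it (50%, interval 21.5 to 78.5, against 31.6%). At W12 an AP1 word was in 12 of 31 peaks (38.7%, against 29.8%) and a SOX word in 7 of 31 (22.6%, against 24.8%). A GATA word, spelled AGATAAC in its first form and AGATAAG in the other, was in 1 of the 64 W1 peaks (1.56%, against 3.17%), and so was the RUNX word AACCACA (1.56%, against 2.12%). Each of these shares had an interval that held the share of the whole list. A match is only a description of the letters in these windows.

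SOX9 binding near the desmosome genes went from 13 peaks at D0 to 64, 80 and 75 in the first 3 stages of DOX, and was at 31 at W12. The lists themselves held 792, 15651, 18657, 20579 and 9745 peaks in the same order. From W2 to W6 the members' count was lower at the later week and that of the whole list higher, and for both it was lower at W12 than at W6. All 10 members had a SOX9 peak at W1, as did 52.4% of all genes taken with the same windows, and 9 of 10 had one at W12, as did 39.8% of genes. All 10 had fewer SOX9 peaks at W12 than at W1, which was true of 74.5% of genes that had a W1 peak. Before DOX, 8 of 10 members had a SOX9 peak, as did 6.03% of genes, and the windows held 1.64% of the D0 list but 0.318% to 0.429% of each later list. The members' D0 peaks had a median maximum of 2306 RPKM, against 2213 over the whole D0 list, whose weakest was 1814. The paper describes EpdSCs as negative for SOX9 and reports nuclear SOX9 by W1. Whether the D0 peaks mark SOX9 protein or background was not tested. All 12 SOX9 elements of D0 (peaks merged across the lists) were present again at W1, W2 and W6, and 10 of them also at W12. The matching shares over the whole D0 list were not counted, so this return may not be particular to these genes.

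**Figure D1:**
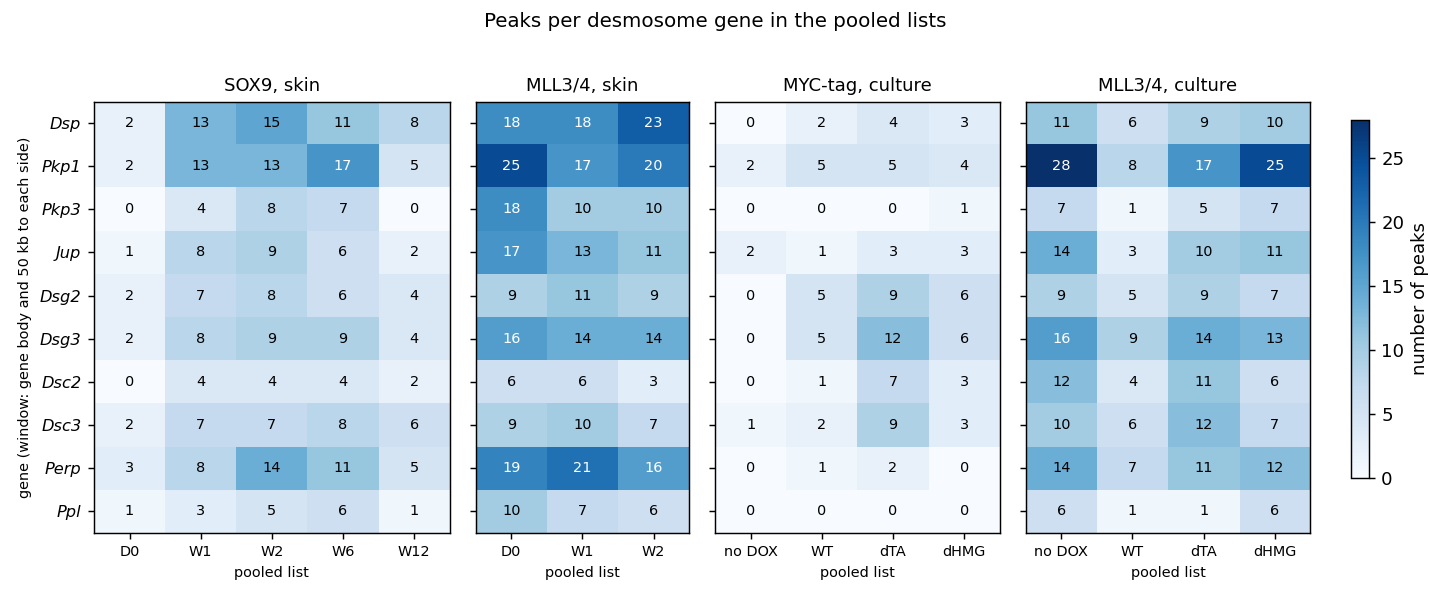
Number of peaks in the window of each desmosome gene (rows; gene body and 50 kb to each side) in each of the 16 pooled lists (columns), grouped by antibody and cell source. A darker cell holds more peaks. SOX9 counts were highest at W1 to W6 and lower at W12 for every gene, *Pkp3* falling from 7 peaks at W6 to 0, while MLL3/4 in skin ranged from 3 peaks (*Dsc2* at W2) to 25 (*Pkp1* at D0). A peak in overlapping windows is shown under each gene.

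Among the plaque genes, *Dsp*, the link to keratin, had 2 SOX9 peaks at D0, then 13, 15, 11 and 8 at W1, W2, W6 and W12. *Pkp1*, whose loss causes skin fragility in humans, had 2, then 13, 13, 17 and 5. *Jup*, the plakoglobin that also binds classical cadherins, had 1, then 8, 9, 6 and 2. *Pkp3*, a plakophilin of all epidermal layers, had 0, then 4, 8, 7 and 0, and *Ppl* had 1, then 3, 5, 6 and 1. Thus *Dsp* and *Pkp1* carried the most SOX9 peaks at W1, and *Pkp3* and *Ppl* the fewest at W12.

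Among the membrane genes, *Perp* had 3, 8, 14, 11 and 5 SOX9 peaks from D0 to W12. *Dsg3*, the basal desmoglein that is the autoantigen of pemphigus vulgaris, had 2, 8, 9, 9 and 4. Its neighbour *Dsg2*, the widely expressed desmoglein, had 2, 7, 8, 6 and 4. *Dsc3*, the main desmocollin of basal keratinocytes, had 2, 7, 7, 8 and 6, and *Dsc2* had 0, 4, 4, 4 and 2. From W1 to W12 the count at *Dsc3* went from 7 to 6, whereas that at *Jup* went from 8 to 2 and that at *Pkp3* from 4 to 0.

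Near the members there were 134 MLL3/4 peaks before DOX, then 110 and 107 after 1 and 2 weeks, from lists of 37072, 31539 and 29281. At W1, 51 of the 134 D0 peaks were lost, meaning that no W1 peak overlapped them by 1 bp or more (38.1%, interval 30.3 to 46.5), whereas 48.5% of all D0 peaks were lost. At W2, read against the same D0 list, 47 were lost (35.1%, interval 27.5 to 43.5), against 48.7% of all. Gains were likewise fewer, with 22 of 110 W1 peaks absent at D0 (20.0%, interval 13.6 to 28.4, against 39.7%) and 24 of 107 W2 peaks (22.4%, interval 15.6 to 31.2, against 35.7%). Both intervals for losses and both for gains lay below the share of the whole list. The lower loss and the lower gain at W1 did not hold in all settings. Above a total signal of 1800 the members lost 55.2% (32 of 58, interval 42.5 to 67.3, against 51.2% of all), in the stronger 50% of each list 38.6% (interval 29.1 to 49.1, against 45.7%) and in lists of equal size 35.8% (interval 27.9 to 44.6, against 42.9%), and each of these intervals held the share of all peaks. Those for the loss at W2, at 32.8%, 35.2% and 30.3%, lay below the 48.6%, 47.8% and 40.8% of all peaks. The lower gain at W1 did not hold above 1800 either (9 of 35, 25.7%, interval 14.2 to 42.1, against 37.9%). It held in the stronger 50% (18.3%, against 36.6%) and in lists of equal size (22.7%, against 42.6%). The lower gain at W2 held in all of these settings.

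Peak strength moved with these shares. The members' D0 peaks were stronger than most, with a median rank in the top 36.4% of the list by total signal and 65.7% of them in its stronger 50%. Lost peaks were weaker than kept ones, with a median rank in the top 57.5% for the 51 lost and in the top 17.9% for the 83 kept. When D0 peaks were divided into 4 bins of equal size by total signal, the strongest lost 6 of 55 members' peaks at W1 (10.9%, against 12.7% of all peaks in that bin) and the next 12 of 33 (36.4%, against 41.7%). The remaining bins lost 20 of 27 (74.1%, against 61.8%) and 13 of 19 (68.4%, against 77.6%). Within every bin the members' interval held the share of all peaks, so the lower loss was not detectable at matched strength. At W2 the bins lost 10.9%, 39.4%, 55.6% and 68.4%, against 13.9%, 41.5%, 62% and 77.3% of all, and again every interval held the share of all peaks. For gains at W1, bins made in the same way from the W1 list gave 9.09% against 16%, 15.8% against 29.3%, 12.5% against 44.4% and 66.7% against 69.2%, and the intervals lay wholly below only in the third of them (3 of 24 peaks, interval 4.34 to 31). For gains at W2 the bins gave 7.32% against 14.8%, 22.6% against 27.7%, 28.6% against 40.9% and 57.1% against 59.5%, and every interval held the share of all peaks.

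**Figure D2:**
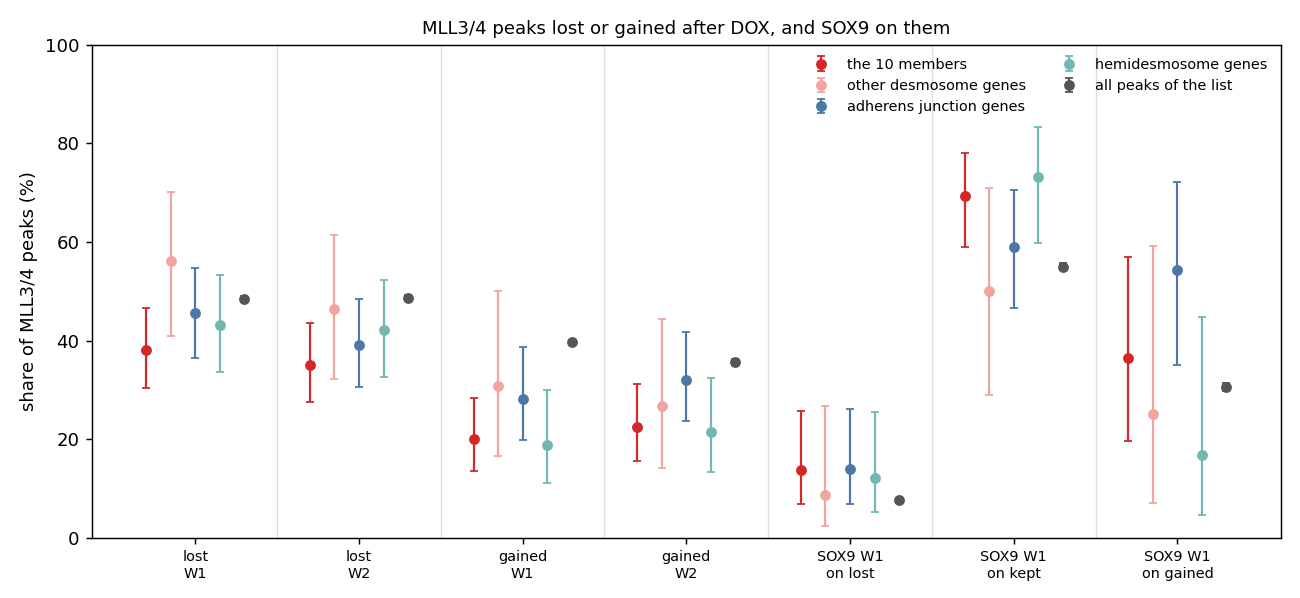
Share of MLL3/4 peaks (%, y axis) lost or gained in skin at W1 and W2, and share of the lost, kept and gained W1 classes that a W1 SOX9 peak overlapped (x axis), for the 10 members, 3 other junction gene lists and all peaks of each list; bars are 95% Wilson intervals over peaks. The members lost 38.1% at W1 against 48.5% of all peaks, and SOX9 sat on 69.3% of their kept peaks against 55.0%.

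The share of MLL3/4 peaks lost ranged widely over the genes, on small counts for each. At W1, *Dsg2* lost 0 of 9 D0 peaks and *Perp* lost 4 of 19. *Dsp* lost 6 of 18, *Dsg3* 5 of 16, *Dsc3* 3 of 9 and *Ppl* 3 of 10. Larger shares were seen at *Pkp1* (11 of 25), *Jup* (8 of 17), *Pkp3* (9 of 18) and *Dsc2* (4 of 6). The widest contrast, *Dsg2* against *Dsc2*, had intervals of 0 to 29.9% and 30 to 90.3%. Across 7089 genes with at least 5 D0 peaks the median gene lost 50% at W1 and at W2, and the median member lost 33.3% and 36.8%, with 8 and 9 of 10 members below that median. *Dsp* was the member with the most gains by count, 6 of 18 peaks at W1 and 10 of 23 at W2, and *Ppl* had 0 of 7 and 0 of 6. As a share of W1 peaks, gains were larger at *Dsc2* (4 of 6) and *Dsc3* (4 of 10), whose windows overlap.

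Other junction genes were counted for comparison, leaving out peaks in the members' windows. At W1 the other desmosome genes (*Dsc1*, *Dsg1a*, *Dsg1b*, *Dsg1c*, *Dsg4*, *Pkp2*, *Evpl* and *Cdsn*) lost 23 of 41 peaks (56.1%, interval 41 to 70.1). The adherens junction genes, among them *Cdh1* and *Ctnnb1*, lost 50 of 110 (45.5%, interval 36.5 to 54.8), and the hemidesmosome genes, among them *Itga6* and *Itgb4*, lost 41 of 95 (43.2%, interval 33.7 to 53.2). The interval of each of these lists overlapped that of the members.

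SOX9 overlapped a larger share of kept than of lost MLL3/4 peaks. At W1 a SOX9 peak overlapped 61 of the 88 members' MLL3/4 peaks kept since D0 (69.3%, interval 59 to 78, against 55.0% of all kept peaks). It overlapped 8 of the 22 gained peaks (36.4%, interval 19.7 to 57, against 30.5%) and 7 of the 51 lost ones (13.7%, interval 6.81 to 25.7, against 7.58%). These shares were not matched for peak strength and changed with the threshold. Above a total MLL3/4 signal of 1800, SOX9 was on 92.3% of kept (interval 75.9 to 97.9, against 83.9% of all), 100% of gained (9 of 9, interval 70.1 to 100, against 81.5%) and 53.1% of lost peaks (interval 36.4 to 69.1, against 37.6%). In lists of equal size it was on 84.9% of kept (interval 72.9 to 92.1, against 72.3%), 76.5% of gained (interval 52.7 to 90.4, against 63.2%) and 26.7% of lost peaks (interval 14.2 to 44.4, against 21.8%). In the lists as deposited and in those of equal size, the members' interval for kept peaks lay above the share of all, whereas above 1800 it held that share. It also held it in the stronger 50% of each list (36 of 58, 62.1%, interval 49.2 to 73.4, against 50%). The intervals for gained and lost peaks held the share of all in each of these 4 settings. Seen from SOX9, 56 of the 64 W1 peaks lay on D0 MLL3/4 (87.5%, interval 77.2 to 93.5), against 67.7% of all W1 SOX9 peaks. Merged across D0, W1 and W2, the members had 161 MLL3/4 elements. SOX9 at W1 or W2 overlapped 61 of the 68 elements found in all 3 lists (89.7%, interval 80.2 to 94.9, against 75.5% of all such elements) and 7 of the 8 found at W1 and W2 but not at D0 (87.5%, interval 52.9 to 97.8, against 71.7%). It overlapped 5 of the 35 found at D0 alone (14.3%, against 8.15%), 2 of the 14 found at W1 alone (14.3%, against 16.3%) and 1 of the 13 found at W2 alone (7.69%, against 23.2%). Only for elements of all 3 lists did the members' interval, among these 5 classes, lie wholly to one side of the share of all elements. Of the 161 elements, 77 were intergenic, 39 intronic and 34 within 1 kb of an annotated start, and 121 had a member as the gene with the nearest start.

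**Figure D3:**
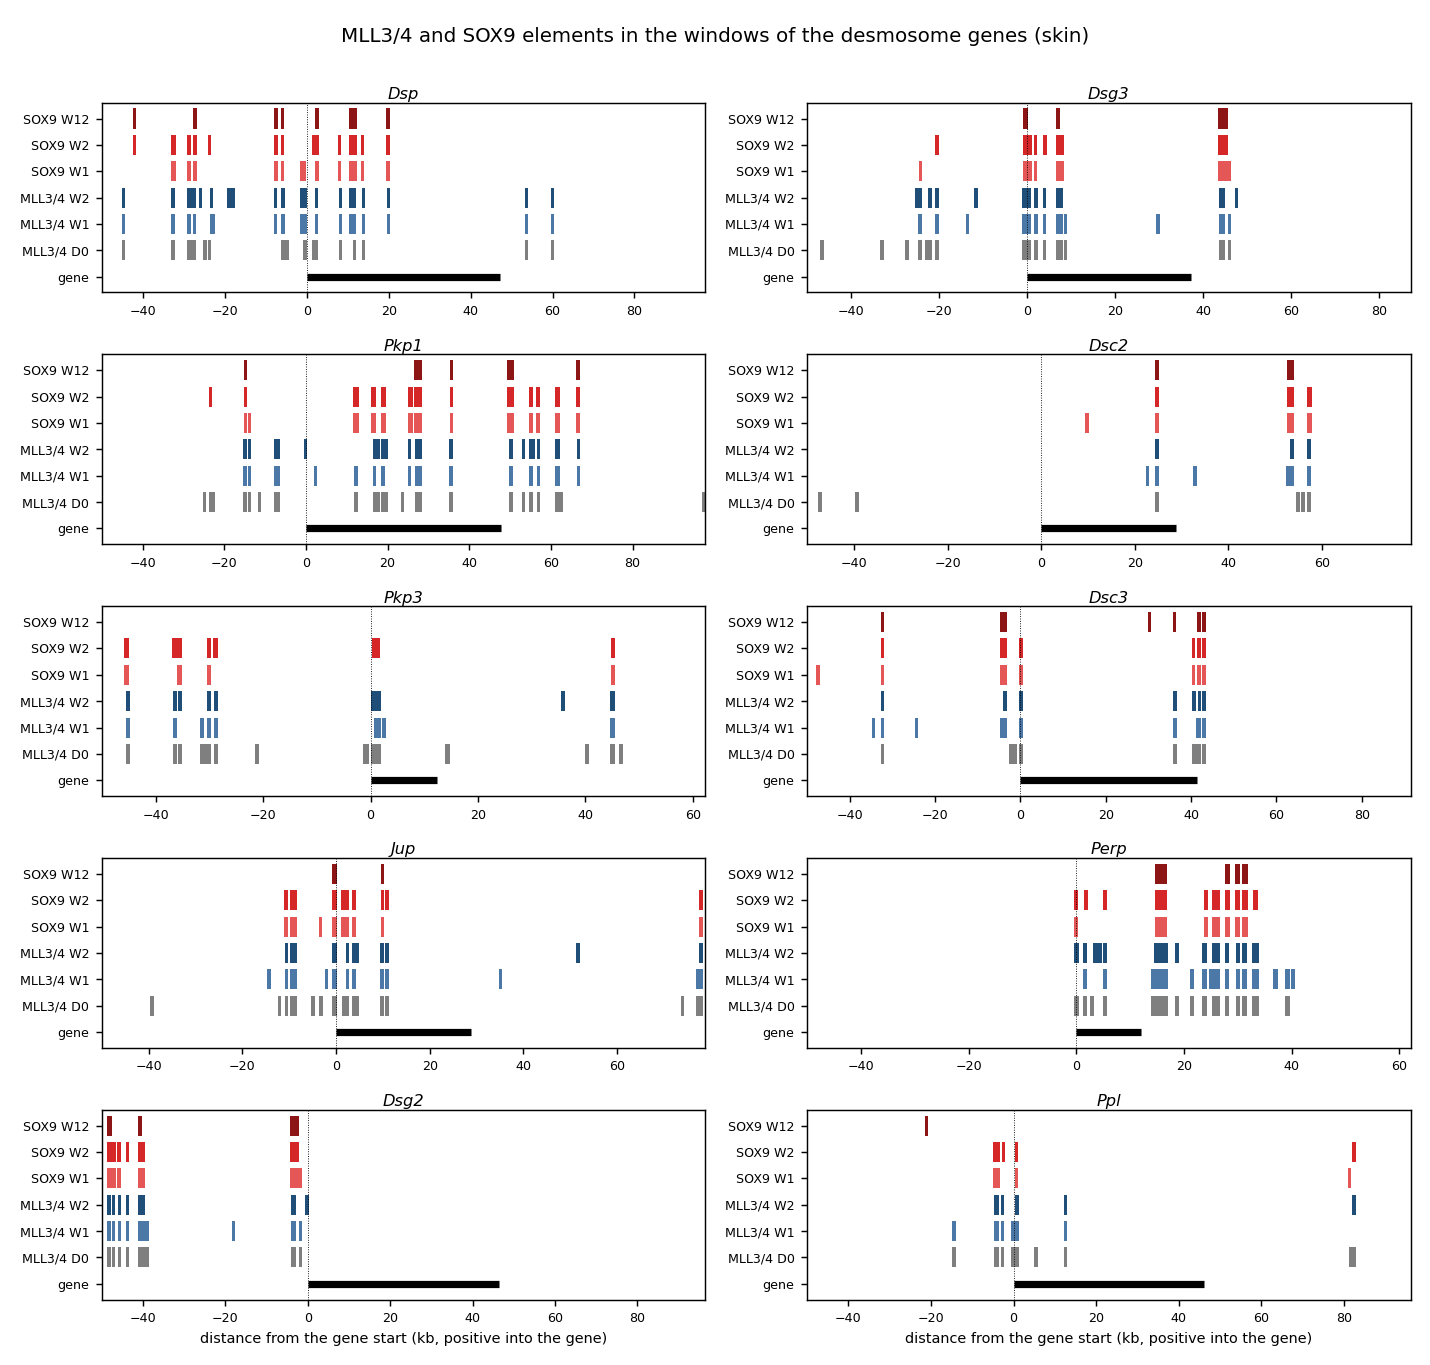
Position of MLL3/4 elements (D0, W1 and W2) and SOX9 elements (W1, W2 and W12) in the window of each desmosome gene; the x axis is the distance from the gene's start in kb, positive into the gene, and the black bar is the gene body. Short elements are widened to a fixed minimum so that they can be seen. Columns of SOX9 marks stand over columns of MLL3/4 marks, and at *Dsp* 5 columns have MLL3/4 at W1 and W2 and none at D0.

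Of the 8 W1 SOX9 peaks without MLL3/4 at D0, 7 had an MLL3/4 peak at both W1 and W2 (87.5%, interval 52.9 to 97.8, against 48.4% of all 5058 such W1 peaks). The same 7 were those with MLL3/4 in at least 1 of these weeks, which 73.1% of all such peaks had, a share within the interval. SOX9 was found again at 6 of them at W2 (75%, interval 40.9 to 92.9, against 69.7%) and at 5 at W12 (62.5%, interval 30.6 to 86.3, against 44%). Of the 8, 4 were at *Dsp*. Its intron site (chr13:38170628-38171542) had a W1 maximum of 7203 RPKM, made of 125 fragments, and 6417, 7178 and 2849 RPKM at W2, W6 and W12. The site at chr13:38143300-38144273, upstream of the start, had 3227, 2598, 3022 and 2390 RPKM, and carries the SOX word printed above. The intron site at chr13:38161733-38162438 was near the threshold, with 1902, 2216, 1805 and 1884 RPKM. The site at chr13:38149681-38150275 had 3054 RPKM at W1 and 2141 RPKM at W6, with no peak at W2 or W12. In the *Pkp1* window, the site at chr1:135852325-135852858, close to the troponin gene *Tnnt2*, had 6396, 6417, 7136 and 2528 RPKM. The other *Pkp1* site (chr1:135893133-135894177, in an intron) had 2996, 3209 and 4156 RPKM from W1 to W6 and no peak at W12. The weakest of these sites in the desmocollin windows (chr18:20049522-20049995, in an intron of *Dsc2*) had 2017 RPKM at W1, no SOX9 peak in any later week and no MLL3/4 at W1 or W2. In culture, MLL3/4 lay on 2 of the 8 sites without DOX and on 2 others with WT-SOX9. Those with WT-SOX9 were the *Pkp1* site near *Tnnt2* and a desmocollin site described next, and neither had MLL3/4 in the other 3 cultured lists. Conversely, the intronic *Pkp1* site had it in the no-DOX, dTA-SOX9 and dHMG-SOX9 lists, and the *Dsp* site at chr13:38161733-38162438 in the no-DOX and dHMG-SOX9 lists, but neither had it with WT-SOX9. The remaining 4 sites had no cultured MLL3/4 peak. The matching shares in culture over all 5058 such W1 peaks were not counted, so these counts cannot be called particular to the members.

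The strongest of these 8 peaks lay between the desmocollin genes. At chr18:20005623-20006399, upstream of the *Dsc3* start, SOX9 had no peak at D0 and maxima of 8183, 9015, 7430 and 6434 RPKM at W1, W2, W6 and W12. MLL3/4 was absent there at D0 and ranked in the top 5.91% of its list at W1 and the top 14% at W2. In culture the MYC tag had a peak of 4925 RPKM with WT-SOX9 and none in the other 3 MYC-tag lists. Cultured MLL3/4 overlapped the coordinates of this W1 peak in the WT-SOX9 list alone, in the top 53%. A weak MLL3/4 peak of the dTA-SOX9 list, in the top 70.2%, lay beside it (chr18:20006686-20006871), within the wider element that the SOX9 peaks of W1 to W12 formed when merged (chr18:20005567-20007116).

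Other elements had a peak in both the SOX9 and the MLL3/4 list at D0. At chr18:19958865-19959896, 43 kb from the *Dsc3* start and just past its end, SOX9 maxima were 3812 RPKM at D0 and 8701, 7411, 8395 and 4688 RPKM from W1 to W12, and MLL3/4 ranked in the top 0.475%, 0.384% and 0.546% at D0, W1 and W2. In culture this element had MYC-tag maxima of 6402 RPKM for WT-SOX9, 10256 for dTA-SOX9 and 1982 for dHMG-SOX9. Between *Dsg3* and *Dsg2*, 3.57 kb upstream of *Dsg2* (chr18:20553719-20555898), SOX9 had 2306, 4437, 6035, 7262 and 2758 RPKM from D0 to W12, and MLL3/4 ranked in the top 0.58%, 30.8% and 10.8% of the D0, W1 and W2 lists. Ranks come from lists of unequal length and unknown depth, so they do not measure a change in occupancy. The *Perp* element 15.2 kb past the start (chr10:18859535-18861335) had 2736, 5532, 5501, 5205 and 4872 RPKM. The *Dsp* element 32.7 kb upstream (chr13:38118290-38119393) held the member MLL3/4 peak of highest rank at D0, the top 0.286%, with 2890, 4264, 6647 and 4659 RPKM of SOX9 from D0 to W6 and no peak at W12.

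In the lists as deposited, most of the lost MLL3/4 peaks were without SOX9, but this share depended on the threshold. SOX9 lay on 7 of 51 as given above, on 53.1% (17 of 32) when only MLL3/4 peaks of total signal above 1800 were taken, on 26.7% in lists of equal size and on 5.88% in the stronger 50% of each list (interval 1.63 to 19.1). Over all lost peaks the shares in the same order were 7.58%, 37.6%, 21.8% and 5.53%, each within the members' interval. The strongest D0 peak that was absent at W1 and W2 ranked in the top 19.1% at *Dsp* (chr13:38126166-38126731), in the top 27% at *Pkp1* (chr1:135930473-135930794) and in the top 10.7% at *Dsg3* (chr18:20482733-20483326), and SOX9 had no peak there in any list. At *Jup* (chr11:100400856-100401229, the top 17.7%) SOX9 had a peak of 2017 RPKM at W1 alone, and at *Ppl* (chr16:5050681-5050935, in the neighbouring gene *Ubn1*, the top 88.7%) one of 4322 RPKM at W1. This *Ppl* SOX9 site (chr16:5050785-5051510) was bound again at W6, with 3862 RPKM. No D0 peak of *Dsg2* was absent at both weeks.

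Of the members' 64 W1 SOX9 peaks, 56 were still bound at W2 (87.5%, interval 77.2 to 93.5, against 77.7% of all W1 peaks) and 55 at W6 (85.9%, interval 75.4 to 92.4, against 73.3%). At W12, 25 were bound (39.1%, interval 28.1 to 51.3, against 35.8%). The share of all peaks lay below the members' interval at W6 and within it at W2 and W12. Stronger W1 peaks were those found again at W12, with a median maximum of 4437 RPKM against 2247 RPKM for the 39 absent (3630 and 2420 RPKM over all peaks). All 25 of the W1 peaks bound at W12 were bound at W2 and W6 too, so that 39.1% of the members' W1 peaks were found in all 4 weeks, against 32.8% (5130 of 15651) of the list, a share within the members' interval. Of 90 SOX9 elements, 25 were bound in all 4 weeks: *Dsp* had 7, *Pkp1* 5, *Perp* 4, *Dsc3* 4, of which 2 were also those of *Dsc2*, *Dsg2* and *Dsg3* the same 3, *Jup* 2, and *Pkp3* and *Ppl* none. At these 25 the median maximum was 4437, 5883, 5121 and 2849 RPKM from W1 to W12. Relative to W1, the median ratio was 1.17 (W2), then 1.05 (W6) and 0.705 (W12), with 23 of 25 lower at the last, against 0.748 and 76.4% lower over 5130 such peaks of the list. The W12 list came from grafted skin, and its 9745 peaks were fewer than those of W1 to W6, which cannot be told apart from the week.

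**Figure D4:**
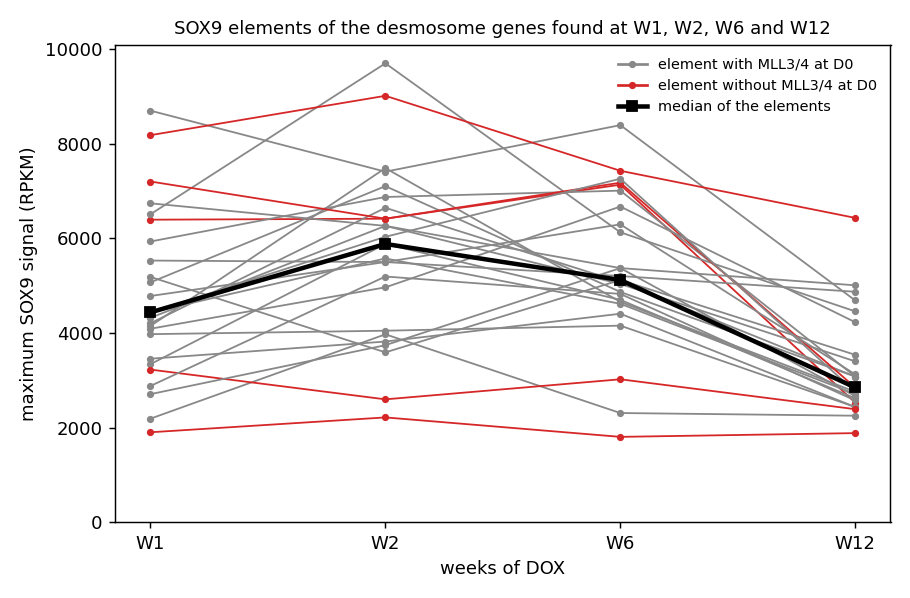
Maximum SOX9 signal (RPKM, y axis) at W1, W2, W6 and W12 (x axis) for the 25 elements of the desmosome genes bound in all 4 weeks; each thin line is 1 element, red where MLL3/4 was absent at D0 (5) and grey where it was present (20), and the black line is the median. The median rose from 4437 RPKM at W1 to 5883 at W2 and was 2849 at W12, and the highest element at W12 (6434 RPKM) was the one between *Dsc3* and *Dsc2*.

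At the starts of the genes themselves, within 1 kb, MLL3/4 was present at D0 for 7 of 10 members (*Dsp*, *Pkp3*, *Jup*, *Dsg3*, *Dsc3*, *Perp* and *Ppl*), as for 29% of all genes, for 6 at W1 (17.9% of genes) and for 9 at W2 (19.4%). SOX9 was at the starts of 6 members at each of W1 (11.7% of genes), W2 (16.8%) and W6 (13.5%), and at W12 it was at 2 (3.19% of genes), *Jup* and *Dsg3*. The *Jup* start (chr11:100397637-100398641) was the only member start with a SOX9 peak at D0 and had a peak in all 16 lists. Its SOX9 maxima were 3474, 5935, 6876, 7010 and 3079 RPKM from D0 to W12, and its MYC-tag maxima were 2226 RPKM without DOX and 2955, 3487 and 2230 RPKM with WT-SOX9, dTA-SOX9 and dHMG-SOX9, in that order. The *Dsg3* start (chr18:20509940-20510309) had no SOX9 peak at D0 and then 6742, 6265, 5373 and 5009 RPKM. Its MYC-tag maxima were 4432 RPKM for WT-SOX9, 9025 for dTA-SOX9 and 1982 for dHMG-SOX9, and it had no such peak before DOX.

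In cultured keratinocytes, the MYC tag had 5 peaks near the members before DOX, and after DOX 16 for WT-SOX9, 36 for dTA-SOX9 and 21 for dHMG-SOX9, from lists of 2242, 6671, 11341 and 3980. The paper reports that dHMG-SOX9 did not bind DNA. The members' dHMG-SOX9 peaks had a median maximum of 1982 RPKM, which is also the lowest value in that list. A WT-SOX9 peak was found at 8 members (32.0% of genes) and a dTA-SOX9 peak at 8 (41.0% of genes), *Pkp3* and *Ppl* having none of either. All 16 WT-SOX9 peaks overlapped a W1 SOX9 peak of skin (100%, interval 80.6 to 100, against 37.6% of all WT-SOX9 peaks). On MLL3/4 of the no-DOX cells lay 13 of the 16 (81.2%, interval 57 to 93.4, against 27.7%), and 14 lay on MLL3/4 of the WT-SOX9 cells (87.5%, interval 64 to 96.5, against 56.6%). A dTA-SOX9 peak overlapped 12 of the 16 (75.0%, interval 50.5 to 89.8, against 19.2%). Of the 36 dTA-SOX9 peaks, 31 lay on no-DOX MLL3/4 (86.1%, interval 71.3 to 93.9, against 68.3%) and 24 on W1 SOX9 of skin (66.7%, interval 50.3 to 79.8, against 27.4%). A SOX word was in 5 of the 16 WT-SOX9 peaks (34.3% of all) and in 4 of the 36 dTA-SOX9 peaks (12.6% of all).

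More dTA-SOX9 peaks were found at the cadherins than at the other members, in absolute number and per Mb. In the 0.393 Mb around *Dsg2*, *Dsg3*, *Dsc2* and *Dsc3* there were 22 dTA-SOX9 peaks against 7 WT-SOX9 peaks, 10 dHMG-SOX9 peaks and 1 without DOX. In the 0.794 Mb around the other 6 genes there were 14, 9, 11 and 4. Per Mb, dTA-SOX9 had 56 peaks at the cadherins and 17.6 at the others, WT-SOX9 had 17.8 and 11.3, and dHMG-SOX9 had 25.5 and 13.8. Without DOX the MYC tag had 2.55 and 5.04 per Mb, and SOX9 in skin at W1 had 38.2 and 61.7. By gene, dTA-SOX9 had 12 peaks at *Dsg3*, 9 each at *Dsg2* and *Dsc3* and 7 at *Dsc2*, windows that overlap in pairs, against 5 at *Pkp1* and 4 at *Dsp*. The split into cadherins and others was made after the counts were seen.

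Cultured MLL3/4 had 113 peaks near the members before DOX, and after DOX 42 for WT-SOX9, 82 for dTA-SOX9 and 94 for dHMG-SOX9, from lists of 33975, 10543, 25948 and 23301. Every member had fewer peaks with WT-SOX9 than without DOX, as did 90.8% of genes with a no-DOX peak, from *Pkp1* (28 to 8) and *Jup* (14 to 3) to *Dsg2* (9 to 5). Of the 113 no-DOX peaks, 33 were kept with WT-SOX9 (29.2%, interval 21.6 to 38.2), above the 18.0% of all no-DOX peaks. With dTA-SOX9 70 were kept (61.9%, interval 52.7 to 70.4, against 55.7%), and with dHMG-SOX9 78 (69.0%, interval 60 to 76.8, against 56.5%). The interval with dTA-SOX9 held the share of all peaks, and the other intervals lay above it. These 3 shares are read against the same no-DOX list. Against the no-DOX list of replicate 1 alone they were 25.9% (interval 19.4 to 33.6, against 16% of all), 51.7% (interval 43.6 to 59.8, against 50.8%) and 58.7% (interval 50.5 to 66.5, against 50.6%), so that with dHMG-SOX9 the interval then held the share of all peaks. The members' no-DOX peaks were stronger than most, with a median rank in the top 34.4% of the list. In 4 bins of equal size by total signal, from the strongest down, WT-SOX9 kept 61.4%, 20.8%, 5% and 0% (0 of 25, interval 0 to 13.3) of the members' peaks, against 47%, 14.1%, 6.83% and 4.23% of all. For dTA-SOX9 the bins gave 86.4%, 66.7%, 50% and 24%, against 92.5%, 65.6%, 40.3% and 24.4%, and for dHMG-SOX9 97.7%, 70.8%, 35% and 44%, against 94.5%, 68.2%, 40.6% and 22.6%. The members' interval held the share of all peaks in every bin except the weakest with dHMG-SOX9 (11 of 25, interval 26.7 to 62.9). In the strongest bin with WT-SOX9 it did so only narrowly (27 of 44, interval 46.6 to 74.3, against 47%). The higher share kept with WT-SOX9 was thus not detectable in bins of matched strength, each of which held few peaks. Of the 42 peaks with WT-SOX9, 6 were gained (14.3%, interval 6.72 to 27.8, against 41.8%). A WT-SOX9 MYC-tag peak overlapped 11 of the 33 kept peaks (33.3%, against 21.3% of all kept) and 1 of the 80 lost (1.25%, against 1.75% of all lost).

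The length of the lists moved with these shares. When every MLL3/4 list was limited to as many of its strongest peaks as the WT-SOX9 list held, 31 of the members' 53 no-DOX peaks were kept with WT-SOX9 (58.5%, interval 45.1 to 70.7, against 41.7% of all), 33 with dTA-SOX9 (62.3%, interval 48.8 to 74.1, against 66.6%) and 48 with dHMG-SOX9 (90.6%, interval 79.7 to 95.9, against 72.9%). At equal length the members' shares with WT-SOX9 and dTA-SOX9 overlapped in their intervals. The interval with dTA-SOX9 held the share of all peaks, and those with WT-SOX9 and dHMG-SOX9 lay above it, as in the lists as deposited. Among the members, the share kept with dHMG-SOX9 was above those with WT-SOX9 and dTA-SOX9.

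**Figure D5:**
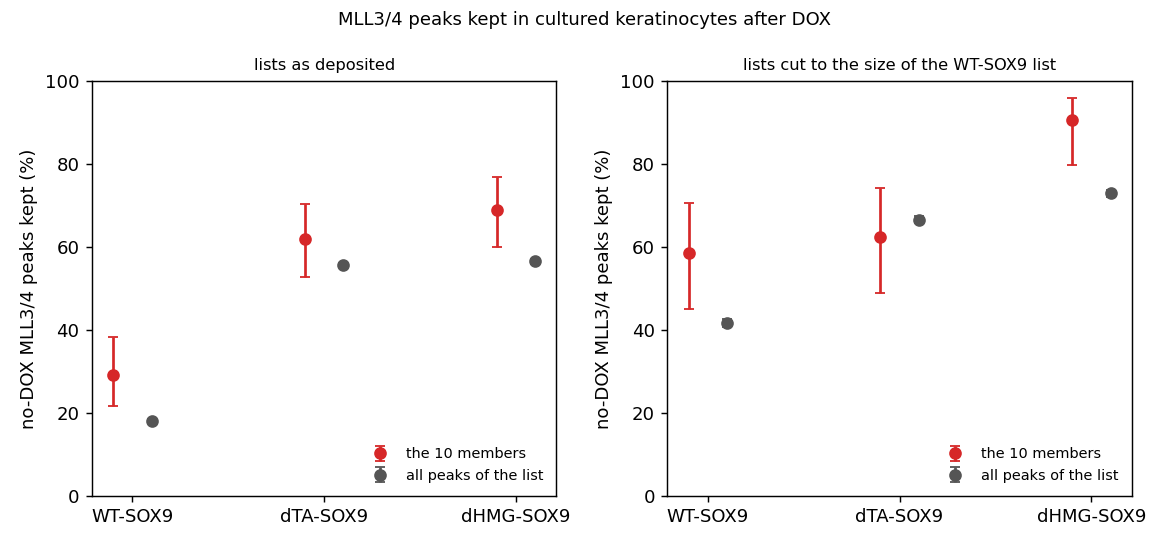
Share of no-DOX MLL3/4 peaks kept in cultured keratinocytes (%, y axis) with WT-SOX9, dTA-SOX9 and dHMG-SOX9 (x axis), for the desmosome genes (red) and all peaks (grey), in the lists as deposited (left) and with all lists limited to the length of the WT-SOX9 list (right); bars are 95% Wilson intervals over peaks. On the left the members went from 29.2% with WT-SOX9 to 61.9% and 69.0%, and on the right from 58.5% to 62.3% and 90.6%.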

How the data were processed

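CNR peak lists of 32 mouse samples were analysed, 2 samples per pooled list, grouped by their labels. The descriptions of the paired MLL3/4 samples with WT-SOX9 and DOX both name replicate 2, against titles of 1 and 2. The 9 JUN, ARID1a and BRG1 samples were not analysed here. The authors used Skewer to trim and Bowtie2 2.2.9 to align reads (mm10), removed duplicates with Picard, used SAMtools 1.3.1, kept fragments of at most 120 bp, made tracks with deepTools 3.1.2 and called peaks with SEACR (stringent, 0.01). In the lists deposited for SOX9 and the MYC tag, the maximum is in RPKM as the authors scaled it, kept above a score of 1800. The 7 deposited pooled MLL3/4 lists hold unscaled whole-number signal (coverage). The deposited total signal, the sum over a peak's bases, is also in the authors' scale, and ranks were taken from it within a list.

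Peaks, genes (GENCODE vM21) and the mm10 (GRCm38.p6) sequence were compared with Python 3.11.15, pandas 2.3.3, numpy 2.4.6, SciPy 1.17.1 and pysam 0.24.0, and plots were made with matplotlib 3.10.9. An overlap needed 1 bp. Genes were taken with 50 kb to each side. Coordinates count from 1. The methods were tested on simulated data. No test between groups was made. Named elements were the strongest of each kind per gene by total signal, and the W1 SOX9 peaks without D0 MLL3/4 were all described. SOX9 elements without D0 MLL3/4 that were first found after W1 were not. The members, gene lists and words were chosen with earlier results of these data known. The bins of equal size by signal, the split by cadherins and the members' culture shares set beside all peaks at equal list length were chosen after the values were seen. Alternatives were a window of 10 kb, members with the nearest start, an overlap of 50%, merging within 500 bp, stricter thresholds, lists of equal size and the no-DOX list of replicate 1 alone.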

Additional observations from a re-analysis of the deposited data

How the results depend on the processing

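Each group had 1 pooled list of unknown spread between samples, and the depth of the MLL3/4 lists is unknown, so a peak missing from a list may lie below its threshold. No paired analysis was possible because each group has 1 pooled list. Of 95 alternative values for 14 results, 72 stayed within the interval or within 1.5 times the count, among them all values for a window of 10 kb, the nearest start, merging within 500 bp and an overlap of 50%. With only MLL3/4 peaks of total signal above 1800, 55.2% were lost at W1 (51.2% of all peaks), SOX9 at W1 was on 53.1% of lost, 92.3% of kept and 100% of gained peaks, and 20.9% were kept in culture with WT-SOX9 (10.9% of all). With lists of equal size, SOX9 was on 26.7%, 84.9% and 76.5% of lost, kept and gained peaks, 52.3% of W1 SOX9 peaks were bound at W12 (43.9% of all), and 58.5%, 71.9% and 78.8% of cultured MLL3/4 peaks were kept with WT-SOX9, dTA-SOX9 and dHMG-SOX9 (each against the no-DOX list limited to the length of the shorter list, where 41.7%, 65.5% and 71% of all were kept, the last within the interval of 69 to 86.2). With the stronger 50% of each list, SOX9 was on 5.88% of lost peaks, W1 SOX9 peaks numbered 38, of which 52.6% were bound at W12 (interval 37.3 to 67.5, above the 34.7% of all), WT-SOX9 MYC-tag peaks numbered 10, and dHMG-SOX9 kept 79.4% (58.2% of all). Above 3600 RPKM, SOX9 peaks numbered 23 at W1 and 6 at W12, and WT-SOX9 MYC-tag peaks numbered 4. With that limit on both SOX9 lists, 26.1% of the W1 peaks overlapped a W12 peak (29.1% of all), and weaker W12 peaks were not counted. These alternatives hold fewer peaks by construction. With the no-DOX list of replicate 1 alone, the shares kept with WT-SOX9, dTA-SOX9 and dHMG-SOX9 were 25.9%, 51.7% and 58.7%, against 16%, 50.8% and 50.6% of all. With starts taken within 2.5 kb, 8 members had MLL3/4 at D0 (32.8% of genes) and 7 had SOX9 at W1 (13.8%).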
